A study of Mus musculus with 3 samples.

Results

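The S100, annexin and galectin genes were examined in NIH3T3, a widely used mouse fibroblast line. The members were defined by gene symbol. A row belonged if its symbol was S100a, Anxa or Lgals followed by a number, or was S100b, S100g, S100z or S100pbp. This rule found 37 of the 55573 rows, made up of 16 S100 genes, 12 annexin genes, 8 galectin genes and S100pbp. The product of S100pbp binds the human protein S100P and is not itself an S100 protein, so it was kept apart. The study developed AmpFISH, an imaging method for RNA, and used UMI-RNAseq of NIH3T3 cells to pick transcripts of different abundance. There are 3 libraries, named library 1, library 2 and library 3, from cells cultured with 10% serum and antibiotics, and no treatment or genetic change is named. All libraries share 1 condition, so no groups could be compared, and nothing states that they came from separate cultures. The SD over libraries may therefore be technical.

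S100 proteins are small calcium sensors that carry a pair of EF-hand loops and mostly work as dimers. Annexins bind acidic phospholipids when calcium rises, and they are known for roles at the plasma membrane, in vesicle traffic and in membrane repair. Some S100 dimers grip the start of an annexin chain and join annexins into larger complexes, of which S100A10 with annexin A2 is the best described. Galectins are lectins that bind beta-galactosides on glycoproteins, inside and outside the cell.

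The calcium loops of the S100 genes show how the members differ in the feature that names the family. Shown is the second EF-hand loop as 12 codons (36 bases) of the coding sequence, 5′ to 3′, for the 8 S100 genes that reached 1 FPKM in every library, from the highest level to the lowest. Capitals mark codons 1, 3, 5 and 12 of the loop, whose side chains hold calcium in a typical EF hand.
S100a6: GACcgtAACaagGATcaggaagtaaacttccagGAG
S100a10: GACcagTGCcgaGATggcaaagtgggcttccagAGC
S100a11: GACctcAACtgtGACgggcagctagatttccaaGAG
S100a16: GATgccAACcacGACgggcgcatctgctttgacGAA
S100a13: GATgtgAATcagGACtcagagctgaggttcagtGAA
S100a1: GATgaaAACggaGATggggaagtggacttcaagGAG
S100a8: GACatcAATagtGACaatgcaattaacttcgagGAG
S100a4: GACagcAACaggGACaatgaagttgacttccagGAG
The sequences were read from the GENCODE M21 transcripts (GRCm38), and each loop was placed by aligning the coded protein with that of S100a6. In S100a10, 2 of the 4 marked codons code for a residue of the usual kind, against 4 of 4 in the other 7 genes shown. S100A10 is known for no longer binding calcium. Among the S100 genes not shown, S100a14 had 1 of 4 and S100a2 had 3 of 4. Compared with S100a6, the loop of S100a4 shared 28 of 36 bases, the most among the others shown, and that of S100a16 shared 16, the fewest. Over whole coding sequences, the 28 pairs of these 8 genes were 35.1% to 60.8% identical in bases, with S100a4 and S100a6 the most alike.

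Levels are given as deposited, in FPKM, which divides the fragments of a gene by its length in kilobases and by the 1000000s of fragments counted in the library. The fragments behind them were recovered from the values and totalled 14423209, 13959723 and 14307241 in libraries 1, 2 and 3. The cell type was checked with markers. All 9 fibroblast markers listed (among them Col1a1, Col1a2, Vim and Pdgfra) reached 1 FPKM in every library, whereas 0 of 8 retina markers and 0 of 5 neural and glial markers did. The sample labels mention retina in their extraction text, and the summed FPKM of the retina markers lay between 0.562 and 1.31 per library. Of 6 immune and myeloid markers, 2 reached 1 FPKM in every library (Cd68 and Lyz2), and of 5 epithelial markers 1 did (Krt14). In these bulk libraries, fewer cells with a transcript and less of it per cell cannot be told apart.

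Most members were either abundant or close to absent. Of the 37 members, 23 (62.2%) had at least 1 FPKM in every library, against 22.2% of all rows and 48.5% of the protein-coding rows. These were 8 of 16 S100 genes, 10 of 12 annexin genes, 4 of 8 galectin genes and S100pbp. In every library, 10 members had at least 100 FPKM, and 9 of them ranked among the 500 highest of the 12905 genes with a mean of at least 1 FPKM. A further 2 members, S100a3 and Lgals4, passed 1 FPKM in some libraries only. The remaining 12 stayed below 1 FPKM in every library and rested on 0 to 19 fragments over all libraries, which are lower bounds for S100a2 and Anxa13. Among the 23 members detected in every library the median of the mean FPKM was 55.1, against 17.5 among all genes with a mean of at least 1. That second limit is looser, and 24 members meet it. A few genes carried each family: S100a6, S100a10 and S100a11 made up 95.7% ± 0.0661 (SD, n = 3) of the summed S100 FPKM, and Lgals1 and Lgals3 made up 96.2% ± 0.0582 of the galectin sum. The annexin sum was spread more widely, with Anxa2, Anxa1, Anxa5 and Anxa3 at 87.4% ± 0.233.

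**Figure D1:**
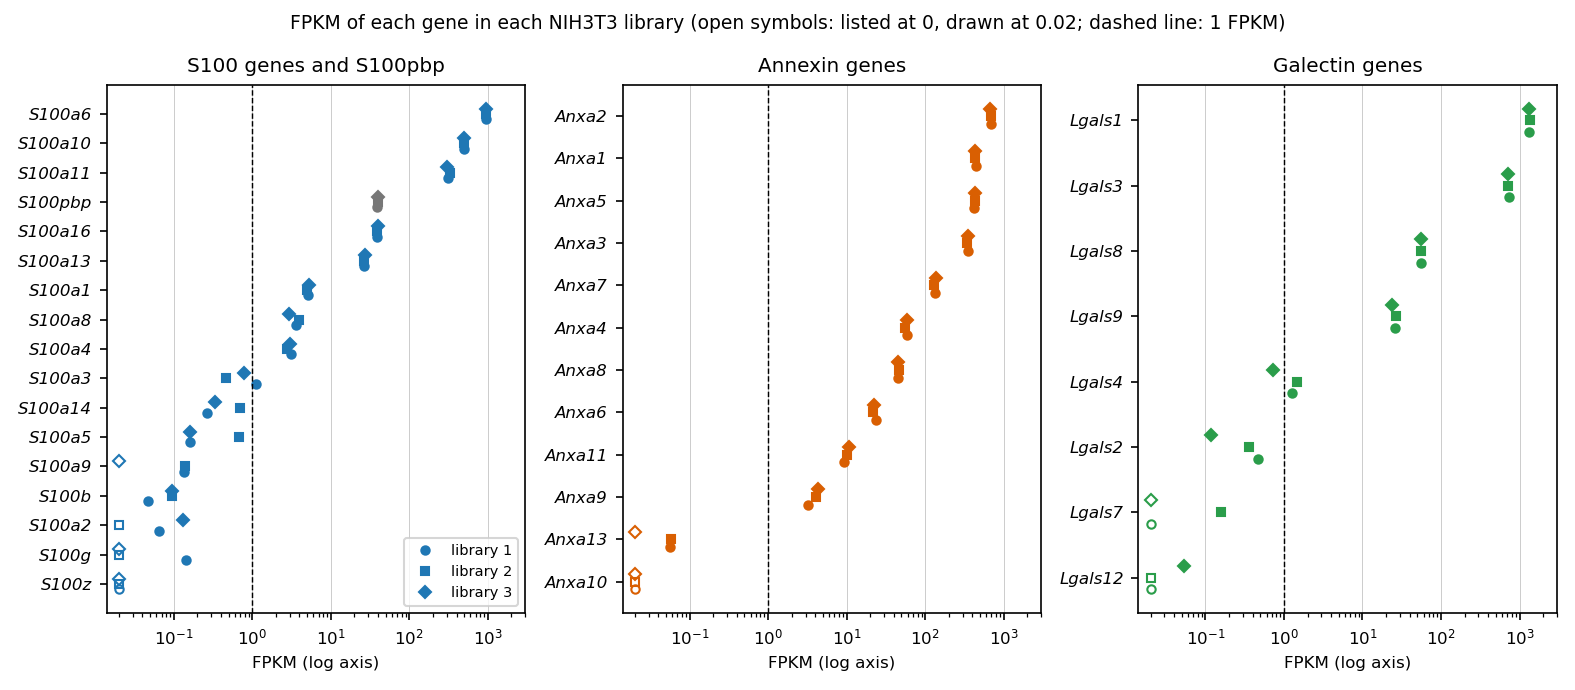
FPKM (log axis) of each S100, annexin and galectin gene in the 3 NIH3T3 libraries, with 1 symbol shape per library, the dashed line at 1 FPKM and open symbols for values listed at 0. The libraries nearly coincide for the 10 genes above 100 FPKM, and they scatter for the genes below the line, which rest on few fragments.

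The summed FPKM was 1839 ± 15.7 for the S100 genes, 2168 ± 9.59 for the annexins and 2150 ± 17.5 for the galectins (SD, n = 3). By library, the annexin sum was 2178, 2159 and 2166 FPKM and the galectin sum was 2147, 2169 and 2135. These ranges overlap, so the annexin and galectin sums were not ordered beyond their spread, while the S100 sum lay below both in every library. The order rests on gene length. With the longest annotated isoform as the length, the sums became 1510 for S100 genes, 1165 for annexins and 1682 for galectins. Counted as fragments per 1000000, without division by length, they were 1061 ± 8.15, 2298 ± 10.6 and 1695 ± 13.3.

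S100a6 led the S100 genes. It encodes calcyclin, a small protein abundant in growing fibroblasts, and lies on the plus strand of chromosome 3 from 90612882 to 90624181 (GRCm38). Its FPKM was 951.6, 952.2 and 944.1 in libraries 1, 2 and 3, with a mean of 949.3 ± 4.49 (SD, n = 3) and rank 61. S100a10, the partner of annexin A2, followed with 491.7, 497.9 and 495.1 FPKM. S100a11, which binds annexin A1, had 312.1, 326.9 and 306.3 FPKM. The ranges of these genes do not overlap, and S100a6 lay 1.92-fold above S100a10, which lay 1.57-fold above S100a11. Sequence shared with other genes touches S100a11 in particular. Of its distinct 75-nt words, 37.8% also occur in a transcript of Gm12854 or Gm7665, which had 11.1 to 14.2 and 27.1 to 28.0 FPKM, so reads could be split between them.

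After these came a wide gap. S100a16 had 38.7, 38.9 and 40.4 FPKM and S100a13, a carrier in the release of FGF1, had 26.6, 26.8 and 27.3. S100a1, best known from muscle, had 5.20, 4.91 and 5.24 FPKM. S100pbp had 39.2, 39.6 and 39.8 FPKM, close to S100a16. S100a8 and S100a4 were the lowest S100 genes detected in every library, and their ranges overlap, from 2.98 to 3.93 FPKM and from 2.75 to 3.16 FPKM. S100a7a, which the rule leaves out because its symbol ends in a letter, had 9.68, 6.67 and 7.79 FPKM.

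S100a4, also called fibroblast-specific protein 1 and used as a marker of fibroblasts in tissue, rested on 19, 16 and 18 fragments in libraries 1, 2 and 3. Its FPKM was 3.16, 2.75 and 3.02, and S100a6, which lies 2 genes further along the chromosome, was higher by a factor of 320.2, with a range over libraries of 301.2 to 346.4. In GENCODE M21, 51.7% of the exonic bases of S100a4 are also exonic in Gm42674, a gene on the same strand that is listed at 0 in every library. How reads that fall in both genes were counted is not stated in the sources used here, and the part of this overlap in the value of S100a4 was not tested. Among the fibroblast markers listed, the lowest mean was 31.6 FPKM (Pdgfrb), and Vim had a mean of 1489.

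S100a8 and S100a9 together encode calprotectin, a protein of neutrophils and monocytes. S100a8 had 26, 27 and 21 fragments (3.66, 3.93 and 2.98 FPKM), while S100a9 had 1, 1 and 0 fragments (0.134 and 0.139 FPKM, and listed at 0 in library 3). Over the summed fragments S100a8 lay 38.8-fold above S100a9 per length, with an exact (Clopper-Pearson) 95% interval of 10.4 to 326.4 that covers counting error only. Beside this, the leukocyte marker Ptprc had 0 to 0.0493 FPKM and Itgam, a marker of myeloid cells, was listed at 0, whereas Cd68 had 1.55 to 2.63 FPKM and Lyz2 had 2.12 to 2.81. Their part in the S100a8 value was not tested.

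The other S100 genes were near the limit of detection. S100a3 passed 1 FPKM in library 1 only, with 1.10, 0.470 and 0.786 FPKM from at least 17, 7 and 12 fragments. S100a14 had 0.268 to 0.692 FPKM and S100a5 had 0.162 to 0.671. S100b, a marker of glia, had 5 fragments in all, S100a2 had at least 3, and S100g, which encodes calbindin-D9k of the gut, had 1. S100z was listed at 0. With its annotated length of 399 nt, a count of 0 allows up to 0.539 FPKM in library 2, the shallowest library, taking 3 fragments as the floor.

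The S100 genes lie side by side on mouse chromosome 3, and neighbours differed widely. On this chromosome lie 13 of the 16 S100 members. The first 11 fill 185 kb, from S100a1 to S100a9 (90511034 to 90695721, GRCm38), of which 6 were detected in every library. S100a11 and S100a10 follow after 2825 kb. Within the block, detected and undetected genes were interspersed. S100a13 (26.9 ± 0.366 FPKM, SD, n = 3) and S100a16 (39.3 ± 0.904) flank S100a14 (0.433 ± 0.227). S100a5, with 0.332 ± 0.293 FPKM, ends 1.10 kb before the annotated start of S100a6. S100a8 and S100a9 lie 22.6 kb apart. S100a2 lies inside the annotated span of S100a3.

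**Figure D2:**
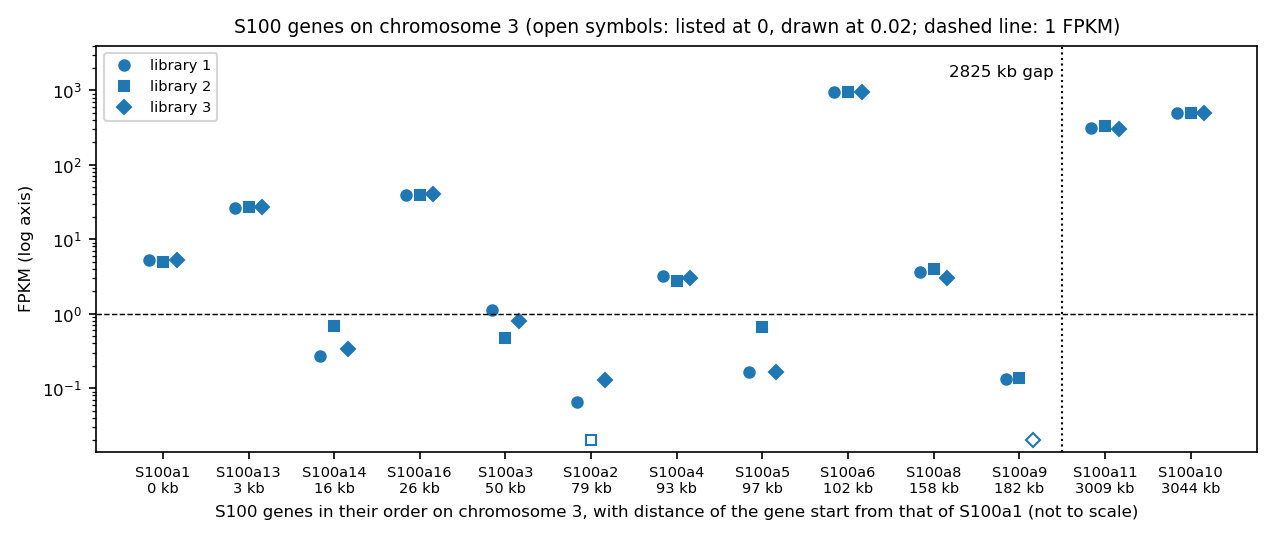
FPKM (log axis) of the 13 S100 genes of chromosome 3 in the 3 libraries, in gene order, with the distance of each gene start from that of S100a1 below its name and open symbols for values listed at 0. S100a6 stands at 944.1 to 952.2 FPKM between S100a5 and S100a8, which stay below 4 FPKM, and the distant pair S100a11 and S100a10 lies above 300 FPKM.

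Anxa2 was the highest annexin. It encodes annexin A2, which links the membrane to cortical actin, and lies on the plus strand of chromosome 9 from 69453620 to 69491795 (GRCm38). Its FPKM was 685.0, 688.5 and 674.2 in libraries 1, 2 and 3, with a mean of 682.6 ± 7.43 (SD, n = 3) and rank 103. Anxa1, which encodes an inhibitor of inflammation released from many cells, had 446.9, 430.0 and 437.7 FPKM. Anxa5, the annexin whose binding to phosphatidylserine is used to stain dying cells, had 425.1, 430.0 and 426.5. Anxa1 and Anxa5 are thus neighbours in the order with almost no distance: their ratio within a library was 1.03 on average and ranged from 1.00 to 1.05. Anxa3 had 347.4, 344.2 and 350.8 FPKM, and Anxa7, a binding partner of sorcin, had 133.7, 128.5 and 136.5. Each of these lay below the one before it in every library. For Anxa1 and Anxa5 in library 2 this was 430.04 against 429.96 FPKM, with 95% counting intervals that overlap. The place of Anxa1 rests on gene length. With the longest isoform, the means were 241.9 for Anxa1, 232.5 for Anxa5 and 185.4 for Anxa3, in the same order. The mean over protein-coding isoforms, looked at after the data were seen, is 1648 nt for Anxa1, where the deposited values use 924 nt. It is 1129 nt for Anxa5 (942 nt used) and 941 nt for Anxa3 (851 nt used). At those lengths Anxa1 would lie below both.

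A middle group followed. Anxa4 had 58.5, 55.1 and 58.1 FPKM and Anxa8 had 45.2, 46.9 and 45.4. Anxa6, the annexin with a doubled core, had 23.4, 21.4 and 22.2 FPKM. Anxa11, which tethers RNA granules to lysosomes, had 9.39, 10.0 and 10.7, and Anxa9 had 3.18, 4.09 and 4.34. Of the exonic bases of Anxa9, 3.42% are also exonic in Mindy1 on the opposite strand, which had 69.8 to 72.6 FPKM. A further 4.53% are shared with 6330562C20Rik on the same strand, which had 2.45, 3.42 and 3.58. The part of these overlaps in the value of Anxa9 was not tested. The ranges over libraries of neighbours in this order, from Anxa4 to Anxa9, did not overlap. The order also rests on gene length: with the longest isoform, Anxa4 had a mean of 31.7, below Anxa8 with 37.6. Anxa13, an annexin of the gut epithelium, had at least 1, 1 and 0 fragments. Anxa10, of the stomach, was listed at 0, and a count of 0 allows up to 0.153 FPKM in library 2 at its annotated length.

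Lgals1 had the highest level of all members. It encodes galectin-1, a dimer of a single lectin domain that binds matrix and cell surface glycoproteins, and lies on the plus strand of chromosome 15 from 78926725 to 78930465 (GRCm38). Its FPKM was 1335, 1363 and 1338 in libraries 1, 2 and 3, with a mean of 1345 ± 15.6 (SD, n = 3) and rank 31 among the 12905 genes with a mean of at least 1. Lgals3 encodes galectin-3, which joins its lectin domain to a flexible tail through which it assembles into lattices. It had 729.8, 722.3 and 716.9 FPKM and rank 96. Lgals1 lay 1.86-fold above Lgals3, between 1.83-fold and 1.89-fold by library. The galectins with a pair of lectin domains were lower. Lgals8 had 54.9, 55.1 and 55.3 FPKM and Lgals9 had 25.7, 26.9 and 24.1, so Lgals3 exceeded Lgals8 13.1-fold. Lgals4, of the gut, had 1.26, 1.47 and 0.715 FPKM from 16, 18 and 9 fragments. Lgals2 had 8 fragments in all, Lgals12, of fat cells, had 2 and Lgals7, of keratinocytes, had 1. The pseudogene rows Lgals1-ps1 and Lgals1-ps2 were listed at 0.

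Among the known binding pairs, the S100 gene lay somewhat below its annexin in both of the abundant pairs. S100A10 and S100A11 dock on the start of their annexin chains, whose first 15 codons are shown, with the start codon in capitals.
Anxa2: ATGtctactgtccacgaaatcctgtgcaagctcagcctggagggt
Anxa1: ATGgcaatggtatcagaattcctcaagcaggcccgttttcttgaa
These were read from the principal isoforms in GENCODE M21. S100a10 had 0.718, 0.723 and 0.734 times the FPKM of Anxa2 in libraries 1, 2 and 3, a log2 ratio of -0.46 ± 0.02 (SD, n = 3). S100a11 had 0.698, 0.760 and 0.700 times the FPKM of Anxa1, a log2 ratio of -0.48 ± 0.07. Whether the ratios of these pairs differ was not tested. The third pair was unequal: S100a6 had 101.4, 94.9 and 88.6 times the FPKM of Anxa11, a log2 ratio of 6.57 ± 0.10. Each log2 ratio kept its sign in all 3 libraries and exceeded its SD. Flipping the signs of the library values in every way (exact permutation test, two-sided) gave p = 0.25 for each pair, and 0.25 after Benjamini-Hochberg adjustment over the 3 pairs, which is the smallest p that 3 libraries allow.

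The direction of the first 2 pairs depends on the gene length. The deposited values divide by the mean length of all annotated isoforms, short fragments of transcripts included. That mean is 1132 nt for Anxa2, whose isoforms measure 641 to 2280 nt, and 591 nt for S100a10, with 477 to 685 nt. It is 924 nt for Anxa1, whose isoforms measure 217 to 1674 nt, and 511 nt for S100a11, which has 1 isoform. With the longest isoform as the length, S100a10 lay 1.26-fold ± 0.0146 (SD, n = 3) above Anxa2 and S100a11 lay 1.30-fold ± 0.0641 above Anxa1. With the mean over isoforms annotated as protein coding, a setting chosen after the data were seen, S100a10 stayed below Anxa2 at 0.585-fold ± 0.00677, while S100a11 lay above Anxa1 at 1.28-fold ± 0.0631. Without division by length, the S100 gene had 0.379 ± 0.00438 and 0.398 ± 0.0196 fragments per fragment of its annexin. S100a6 stayed above Anxa11 under each of these lengths, by at least 23.4-fold on average. With Gm2260 added to Anxa11, a setting also chosen after the data were seen, the log2 ratio of S100a6 to Anxa11 was 5.95 ± 0.54 (SD, n = 3), lower and with a wider spread. Gm2260 shares all of its 75-nt words with Anxa11 and had 6.02, 0.545 and 11.5 FPKM.

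**Figure D3:**
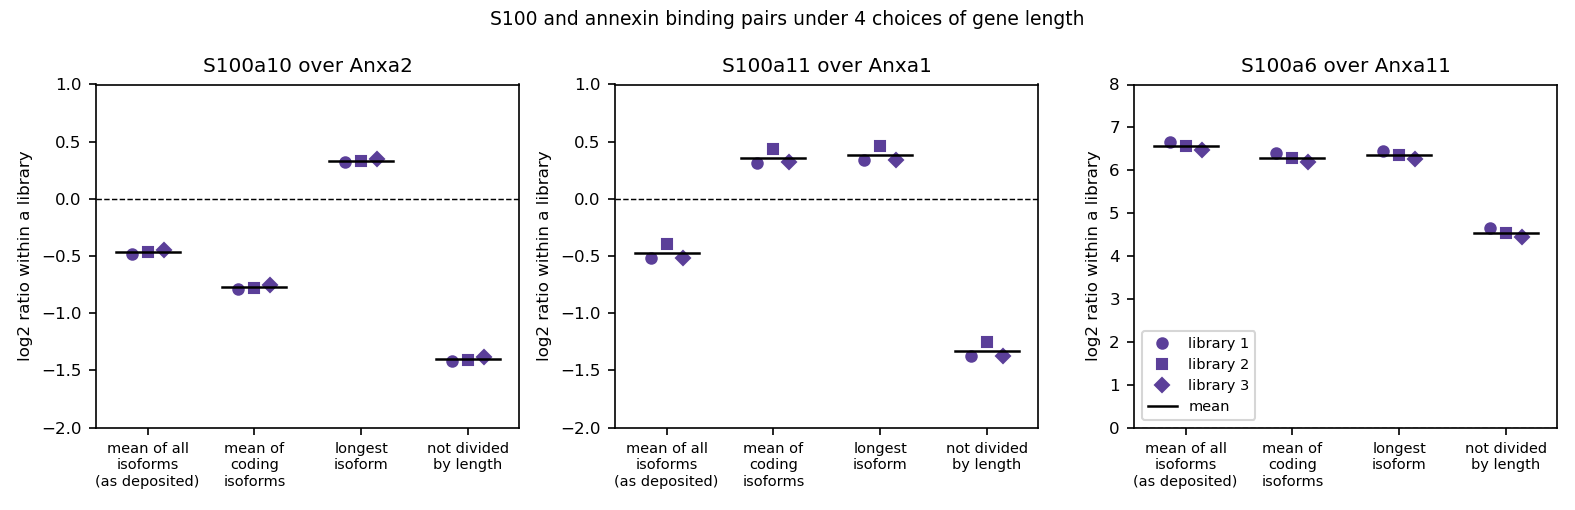
The log2 ratio of the S100 gene to its annexin within each library, for 3 binding pairs and 4 choices of gene length, with bars at the means, a dashed line at equal levels where the axis reaches 0 and its own scale for the S100a6 panel. S100a10 over Anxa2 crosses the line with the longest isoform (0.33), S100a11 over Anxa1 crosses it with the longest isoform (0.38) and with coding isoforms (0.36), and the means of S100a6 over Anxa11 stay between 4.55 and 6.57.

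Further partners of S100 proteins and annexins were mostly present. Of 10 listed, 8 reached 1 FPKM in every library, against 48.5% of the protein-coding rows. Ahnak, a giant scaffold that binds the complex of annexin A2 and S100A10, had 561.3, 595.9 and 578.7 FPKM. Per length this lay between S100a10 and Anxa2, a place that rests on the gene length. Undivided by length, Ahnak had 37731, 38770 and 38594 fragments in libraries 1, 2 and 3, against 11184, 10880 and 10920 for Anxa2. Myh9, a myosin heavy chain bound by S100A4, had a mean of 956.3 ± 17.0 FPKM (SD, n = 3), far above S100a4 itself. Sri, which encodes sorcin, had 225.4 ± 1.94 FPKM beside its partner Anxa7, and Pdcd6, a calcium sensor that binds annexins A7 and A11, had 77.0 ± 0.559. Cacybp and Sugt1, whose products bind S100A6, had 88.1 ± 3.50 and 31.6 ± 2.13 FPKM. Fgf1, the cargo of S100A13, stayed at or below 0.252 FPKM, and Syt1, the synaptotagmin released with it, at or below 0.0478.

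The complex of annexin A2 and S100A10 is also known as a surface receptor for plasminogen and its activator. Of 6 genes of the plasminogen system described here, 4 reached 1 FPKM in every library, against 48.5% of the protein-coding rows. Plaur, the urokinase receptor, had 94.3 ± 1.37 FPKM, Plat had 20.6 ± 0.460, Plau had 9.39 ± 0.568 and Serpinb2 had 1.96 ± 0.109 (SD, n = 3). Plg, plasminogen itself, which the liver makes, stayed at or below 0.0336 FPKM, and Serpine2 was listed at 0.

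Receptors of secreted members were split. Of 7 listed, 4 reached 1 FPKM in every library, against 48.5% of the protein-coding rows. Among these, Bsg had 465.3 to 487.1 FPKM, and the means were 111.6 ± 0.777 for Cd44, 44.7 ± 1.52 for Tlr4 and 5.36 ± 0.174 for Havcr2 (SD, n = 3). Tlr4 is a receptor for S100A8 with S100A9. Ager, the receptor RAGE bound by several S100 proteins, stayed between 0.773 and 0.943 FPKM. Fpr1 and Fpr2, the formyl peptide receptors through which annexin A1 acts, stayed at or below 0.209 FPKM, whereas Anxa1 itself lay above 430 FPKM in each library.

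Of 6 ligands and other binding partners of the galectins, 5 reached 1 FPKM in every library, against 48.5% of the protein-coding rows. Fn1, fibronectin, had 4377 ± 86.1 FPKM (SD, n = 3) and rank 4, and Itgb1, the beta 1 integrin chain, had 463.3 ± 4.96. The lysosomal membrane glycoproteins Lamp1 and Lamp2 were next, with 281.0 ± 1.98 FPKM for Lamp1 and 98.2 to 102.0 FPKM for Lamp2. Lgals3bp, a secreted ligand of galectin-3, had 42.3 ± 1.90. Calcoco2, an autophagy receptor that galectin-8 recruits in human cells, was listed at 0. Among 4 enzymes that build or cap galectin ligands, 3 reached 1 FPKM in every library, against the same 48.5%. B4galt1, which adds the galactose, had 55.9 ± 2.17 FPKM, Mgat5, which makes the branch that galectin-3 favours, had 15.1 ± 0.321, and St6gal1, whose sialic acid masks sites of galectin-1, had 16.8 ± 0.415. B3gnt2, which extends the chain, had 0.835 ± 0.114.

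The spread of the members between libraries was set beside counting error for the 25 members with at least 20 fragments in all. A chi-square of the fragments over the libraries passed its 95% limit of 5.99 for 0 of these 25 members, against 9.26% of all 14705 genes with that many fragments. Its median was 1.40 for the members, 1.58 for all genes and 1.39 by counting error alone. Whether the share of 0 among 25 members differs from that of all genes was not tested. For S100a3 the fragments are lower bounds, so its chi-square of 3.86 is a minimum and it may exceed the limit. The highest value, 5.19, belonged to S100a11, whose CV of 3.38% compares with 2.09% from counting. Among the 10 members above 100 FPKM, the CV ranged from 0.473% (S100a6) to 3.38%. The CV exceeded that of counting error in 12 of the 25 members. Apart from S100a3, the differences of these members between libraries were thus not distinguishable from counting error at this depth, and the remaining 12 members had too few fragments to judge.

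**Figure D4:**
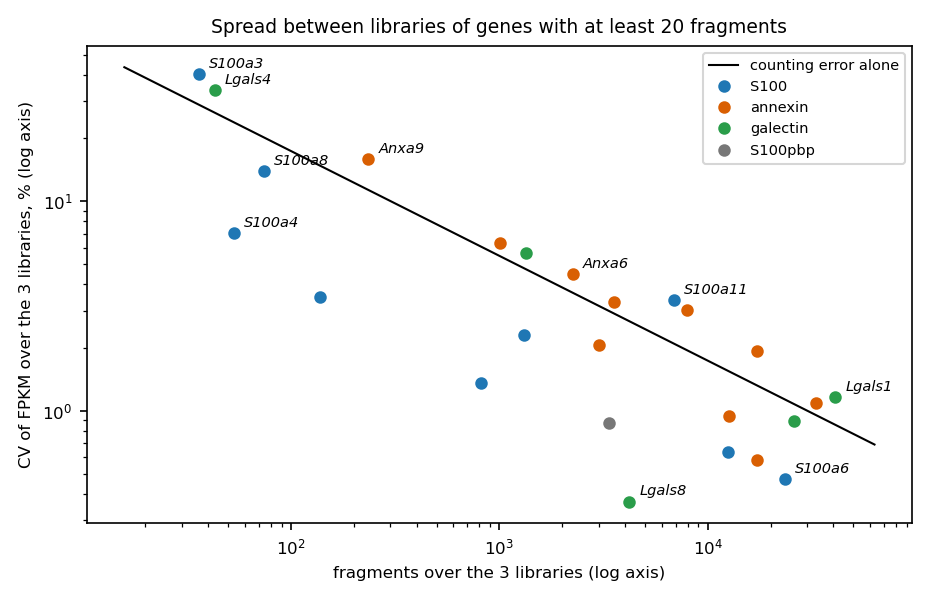
Coefficient of variation (CV, SD divided by mean) of FPKM over the 3 libraries against the fragments behind it (both log axes), for the 25 members with at least 20 fragments, with the line that counting error alone gives. The points lie on both sides of the line and fall with it from S100a3, with at least 36 fragments (a lower bound) and a CV of 40.3%, to Lgals1, with 40993 fragments and 1.16%.

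A feature that the choice of members did not use is the CG content of the promoter. Promoter windows of 300 bases (RefSeq, GRCm38.p6) were matched by symbol for 29 of the 37 members. The 8 without a window include Lgals1, S100a10, Anxa3 and Anxa6, which were detected in every library. Where a gene has several windows, the one with the most CG pairs was taken. The 19 matched members detected in every library had a median of 13 CG pairs (2 to 36), the 10 other matched members had 3.5 (1 to 16), and all 27025 genes of that table had 8. The ranges overlap, and no test was made. Single genes went either way. S100a6 had 6 CG pairs at 949.3 FPKM and S100z had 16 while listed at 0, whereas Lgals3 had 18 at 723.0 FPKM and Anxa10 had 1 while listed at 0. Whether the level follows this count gene by gene was not tested.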

How the data were processed

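UMI-RNAseq of 3 NIH3T3 libraries was analysed. Per the labels and the methods, total RNA was extracted, and the libraries made from it were sequenced with 150 nt paired-end reads. The methods head this work as UMI-mRNA sequencing. UMIs were found with UMI-tools 1.0.0, reads were mapped with HISAT2 2.0.4, duplicates that shared position and UMI were removed, and genes were counted with HTSeq 0.6.1. The submitters' processing notes also list DESeq 1.10.1, with no role. Which build and annotation served for counting, and whether strand was used, is not given in the sources used here. The authors deposited FPKM values, 1 column per library, in 2 tables with identical values. The number of unused columns was 0.

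The recovery of fragments used pandas 2.3.3 and numpy 2.4.6 under Python 3.11.15. Library totals came from genes with 1 isoform. The mean isoform length in GENCODE M21 (GRCm38, 55480 IDs found) gave whole numbers within 0.01 for 99.1% of the 26193 genes with fragments and for 32 members. For S100a2, S100a3 and Anxa13 the lowest whole numbers in the observed ratio were taken, which are lower bounds, and 2 members had none. On simulated data the recovery returned 24473 of 24473 genes. Those data were built with the same annotated lengths, so this checks the calculation only. It tests neither the lengths behind the deposited values nor the route used for S100a2, S100a3 and Anxa13. Tests and intervals used scipy 1.17.1, alignments Biopython 1.88 and figures matplotlib 3.10.9.

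Count models were not used on FPKM. Every member is named. Of the partner and marker lists, and of the rows that overlap or share 75-nt words with a member, only a part is named. Members, lists and pairs were chosen with earlier results of these data known. Alternatives were each library left out, 2 other scalings, other lengths, FPKM limits, pseudocounts, the median, and copies added. Imaging data were not analysed here, and 1 listed gene is not reported here.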

Additional observations from a re-analysis of the deposited data

How the results depend on the processing

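The sign of a log2 ratio reversed with the gene length. With the longest isoform it became 0.33 for S100a10 to Anxa2 and 0.38 for S100a11 to Anxa1, and with protein-coding isoforms, added after the data were seen, it became 0.36 for S100a11 to Anxa1. By construction, only the length differs in these settings. The other alternatives kept the sign of each ratio, although adding Gm2260 to Anxa11, also a later choice, lowered that of S100a6 from 6.57 ± 0.10 to 5.95 ± 0.54. Summed FPKM moved by more than the SD between libraries with the longest isoform (1510 for S100 genes, 1165 for annexins and 1682 for galectins), without division by length (1061, 2298 and 1695 fragments per 1000000) and when rescaled to 1000000 per library (2665, 3141 and 3116). Leaving out 1 replicate gave log2 ratios of -0.47 to -0.46 for S100a10, -0.52 to -0.46 for S100a11 and 6.52 to 6.62 for S100a6. It gave sums of 1830 to 1845, 2163 to 2172 and 2141 to 2158, and 23 to 24 members detected. Of 62 recomputed values of these results, 50 kept their sign or stayed within the spread, or within 1.5 times for the count. For single members, 219 values stayed within the spread and 73 moved beyond it. No paired analysis was possible because all libraries belong to the same condition and no groups exist. Depth limits the 12 members with under 20 fragments, for which no difference between libraries can be judged.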

Other observations

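Gm2260, a row whose 75-nt words all occur in Anxa11 as well (100% of its words), had listed values that differed more between libraries than those of Anxa11. It was lowest in library 2 (0.545 FPKM) and highest in library 3 (11.5), whereas Anxa11 had 9.39, 10.0 and 10.7 FPKM. Of the words of Anxa11, 13.9% occur in Gm2260, so reads could be split between these rows, which was not tested. Gm2274, with 98.7% of its words in Anxa11, was listed at 0. Both were looked at after their values were seen.

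Lgalsl, a galectin-like gene outside the naming rule, had 55.4, 53.4 and 55.7 FPKM, a range that overlaps that of Lgals8.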
